A study of Macaca mulatta with 24 samples.

Results

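Transcripts of 8 tyrosine kinase genes, the SRC-family members SRC, FYN, LYN, FGR, YES1 and BLK together with CSK and SYK, were followed in the blood of rhesus macaques during the week after total body irradiation. The members were chosen by name, as every non-control probe that the scanner output names for 1 of these 8 genes, which gave 13 probes (5 for FYN, 2 for SYK and 1 for each other gene) among 43603 probes and 15046 named genes. RNA was prepared from whole blood of adult Macaca mulatta and depleted of globin transcripts with a kit made for human blood. Of the 24 arrays 7 hold unirradiated blood (Pre-irradiation, 0 Gy) and 4, 6 and 7 hold blood of days 3, 5 and 7 after 4 Gy to the total body. Animals numbered 1 to 4 are male and 5 to 7 female, the same animals were bled repeatedly, and these arrays hold no samples of unirradiated animals on the later days, so that time, repeated bleeding and irradiation cannot be told apart in them. On the single arrays 49.6 to 53.1% of probes were well above background before irradiation, and on those of days 3, 5 and 7 the shares were 53.9 to 57.6%, 51.0 to 61.2% and 48.3 to 60.9%.

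SRC-family kinases sit under the plasma membrane and phosphorylate the tyrosine motifs (ITAMs) of receptors such as the B-cell and Fc receptors, which then recruit and activate SYK. CSK holds the family in check by phosphorylating a tyrosine near its C-terminus. In blood LYN and FGR are known from myeloid cells, LCK and FYN from T cells, BLK from B cells, and SRC, FYN and LYN from platelets. In whole-blood RNA, fewer cells of a type and less RNA per cell cannot be told apart.

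Members of the family resemble each other in their kinase domains, so the probes were compared with one another by sequence. The FYN gene is shown because it has probes both inside and beyond the kinase-coding sequence. The first FYN probe lies at chr4:152241685-152241744 and the second at chr4:152261672-152261731 (plus strand, build rheMac2 by the scanner header), and both are from the sequence that codes for the kinase domain. Capitals mark the 11 bases that the first shares with the BLK probe:
FYN first probe: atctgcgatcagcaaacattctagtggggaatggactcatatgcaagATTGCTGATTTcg
FYN second probe: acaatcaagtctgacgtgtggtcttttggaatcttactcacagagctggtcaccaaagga
The longest run that probes of 2 different members share is 12 bases of 60, between the leading FYN probe and the CSK probe. The leading probe of a gene is the one with the highest mean log2 signal over the arrays. For FYN it is the fourth, at chr4:152274715-152274774, and the third lies at chr4:152274539-152274598. The fifth FYN probe is of another kind, because it carries a run that recurs across the array. Counting any run of 20 bases, this probe shares sequence with 68 of the 43602 other probes, and none of the other 12 member probes shares a run of that length with any probe.

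Of the 13 probes, 12 could be tested. All but those of BLK and YES1 were well above background on all 24 arrays, the BLK probe was on 20, and the YES1 probe on only 2, too few for a test. At day 3, 4 of the 12 probes changed against pre-irradiation at an adjusted p under 0.005, namely SRC, LYN and FGR, which rose, and BLK, which fell, while 13.5% of all probes tested changed (5.43% higher, 8.03% lower). At day 5, LYN rose and BLK fell (2 of 12, against 16.7% of all probes, 7.15% higher and 9.59% lower), and at day 7 BLK alone fell (1 of 12, against 10.9%, 3.6% higher and 7.28% lower). With the animal as a block, and without animal 1 or animal 7, BLK was the 1 probe of the 12 that passed at day 3. Among all probes tested 751, 1398 and 1792 passed in these fits, against 3652 in the main one. The animal block uses only animals with an array in both groups, 4 at day 3 and 6 at day 5. After another background correction (normexp on the raw mean signal) none of the 12 passed on any day. Among all probes tested 135, 210 and 326 then passed at days 3, 5 and 7, against 3652, 4543 and 2951 before. At an unadjusted p under 0.05 the 3 days had 9, 6 and 3 of the 12. The share of all probes at that level was not counted, so no excess can be read from these numbers. The median log2 change of the 12 probes was 0.06, 0.05 and −0.04 at days 3, 5 and 7, beside 0.02, 0.02 and 0.02 for all probes tested. Each of the 3 changes has the 7 arrays taken before irradiation as its control, so a deviation of those arrays enters all of them.

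**Figure D1:**
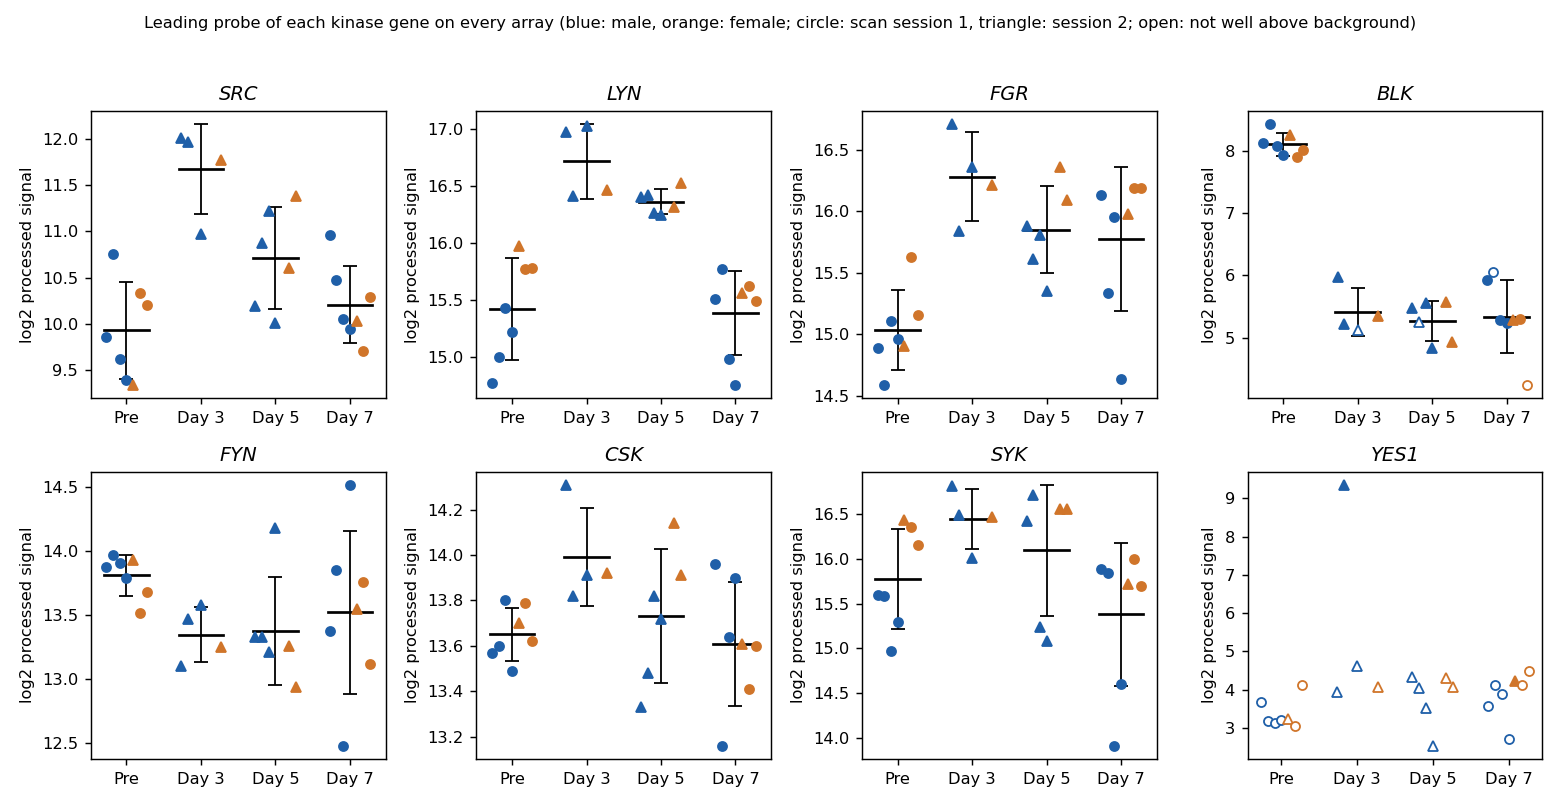
Log2 processed signal of the leading probe of each of the 8 genes on each of the 24 arrays, by group, with the group mean and SD (no mean for YES1, which was not well above background on 22 arrays), with blue for males, orange for females, circles for scan session 1, triangles for session 2 and open symbols for signals not well above background. SRC, LYN and FGR stand above all 7 pre-irradiation arrays on all 4 day 3 arrays, and BLK lies below all 7 on every later array.

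SRC, the founding member of the family, rose at day 3 and stood close to its starting level at day 7. Its log2 signal ran from 9.34 through a median of 9.86 to 10.76 before irradiation, and was 12.01, 11.97, 10.97 and 11.77 on the 4 day 3 arrays. All 4 lay above every pre-irradiation array. At day 5 it ran from 10.01 through 10.74 to 11.38, where 3 of 6 exceeded all those before irradiation, and at day 7 from 9.71 through 10.05 to 10.96, where 1 of 7 did. The change at day 3 was 1.75 ± 0.30 on the log2 scale (SE, 4 against 7 arrays; 3.36-fold; limma adjusted p 0.00146), and at days 5 and 7 it was 0.78 ± 0.28 and 0.28 ± 0.25 (adjusted p 0.044 and 0.428). Within animals the difference from the own pre-irradiation array was above 0 in 4 of 4 at day 3, 6 of 6 at day 5 and 5 of 7 at day 7. In the fit that blocks on animal the day 3 change was 1.63 ± 0.22 and no longer passed the threshold (adjusted p 0.00601). That fit holds only the 4 animals with both arrays. The threshold was also not passed without animal 1 (1.63; 0.0117) or animal 7 (1.76; 0.00759).

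The 7 tested platelet markers moved with SRC. All 7 rose at day 3, 2 rose at day 5 and none changed at day 7 by limma, where 7.77%, 8.89% and 4.37% of all named genes rose, and their median log2 changes were 2.95, 1.07 and 0.08. Their summed signal ran from 43630 to 120751 before irradiation, from 370198 to 614495 at day 3, from 102888 to 162032 at day 5 and from 35697 to 118466 at day 7. Their part in the SRC result was not tested. Over the 24 arrays the named genes whose centred levels lay nearest to those of SRC were ENTPD6 and CAVIN2, with a mean absolute difference of 0.32 and 0.34 log2 units, where the median over 10646 genes was 0.87.

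LYN, which in B cells and myeloid cells acts both to start and to restrain signaling, rose at days 3 and 5 and was back among the pre-irradiation values at day 7. Its log2 signal ran from 14.77 through 15.43 to 15.97 before irradiation, was 16.98, 16.41, 17.03 and 16.47 at day 3, ran from 16.25 through 16.36 to 16.53 at day 5, and from 14.75 through 15.51 to 15.77 at day 7. Every day 3 and day 5 array lay above all pre-irradiation arrays, and no day 7 array did. The changes were 1.30 ± 0.25 at day 3 (2.46-fold; adjusted p 0.00261), 0.94 ± 0.19 at day 5 (1.92-fold; 0.00203) and −0.04 ± 0.22 at day 7 (0.919). The 6 day 5 arrays were the closest together of any group, with an SD of 0.11, against 0.45 before irradiation. With the animal as a block the day 3 change was 1.53 (adjusted p 0.0127), which did not pass, and the day 5 change was 1.04 (0.00313), which did. Left out singly, animal 1, 2, 3, 4 or 7 cost LYN its call on both days, with changes of 1.11 to 1.44 at day 3 (adjusted p 0.00577 to 0.0224) and 0.83 to 0.97 at day 5 (0.0059 to 0.0109).

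FGR, a myeloid member of the family, rose at day 3. Its log2 signal ran from 14.59 through 14.96 to 15.63 before irradiation and was 16.71, 15.84, 16.36 and 16.21 at day 3. At day 5 it ran from 15.35 through 15.84 to 16.36, and at day 7 from 14.64 through 15.98 to 16.19. All 4 day 3 arrays, 4 of 6 day 5 arrays and 5 of 7 day 7 arrays lay above all pre-irradiation arrays, so that the later groups overlap with it. The change was 1.24 ± 0.22 at day 3 (2.37-fold; adjusted p 0.00152), 0.81 ± 0.19 at day 5 (1.76-fold; 0.00522, short of the threshold) and 0.74 ± 0.25 at day 7 (1.67-fold; 0.0362). With the animal as a block it was 1.38 at day 3 (adjusted p 0.00778, not passed) and 0.79 at day 5 (0.00348, passed). Without animal 1, 4 or 7 the day 3 change was 1.08, 1.20 or 1.29 and did not pass (0.0118, 0.0134 and 0.00717), and without animal 6 the day 5 change of 0.81 passed (0.00407). By adjusted p it also passed at day 5 with 75th percentile scaling (0.83, p 0.00447), quantile scaling (1.16, p 0.000921), sex as a block (0.86, p 0.00117) and the filter for signal on every array of 1 group (0.81, p 0.00354), and at day 7 with quantile scaling (1.35, p 0.00313). It did not pass at day 5 with normexp background (0.26, p 0.745), the fit over all groups (p 0.0104), no filter (p 0.0108) or the authors' values (p 0.00518). Nor did it pass without animal 1, 2, 3, 4, 5 or 7 (adjusted p 0.00628 to 0.0234).

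The platelet markers given with SRC had medians of 2.95, 1.07 and 0.08 at days 3, 5 and 7, where LYN changed by 1.30, 0.94 and −0.04. Few of the myeloid markers passed the threshold beside LYN and FGR. Of 7 monocyte markers 2, 2 and 1 rose at days 3, 5 and 7 with median log2 changes of 1.05, 0.88 and 0.93, and of 9 neutrophil markers 1, 2 and 2 rose with medians of 0.93, 0.78 and 0.43, where 7.77%, 8.89% and 4.37% of all named genes rose. The 1 of 9 neutrophil markers at day 3 is near that share. The summed monocyte signal ran from 77994 to 113388 before irradiation, and on days 3, 5 and 7 from 135641 to 188166, 101742 to 147191 and 72525 to 157697. The summed neutrophil signal ran from 290627 to 624045, 539587 to 1337580, 561040 to 1055270 and 416857 to 948187 in the same order. No defining marker among those on the array was below background throughout in either list, and the part of these lists and of the platelet markers in the LYN and FGR results was not tested. Nearest to LYN over the 24 arrays were LAMP2 and SUSD6 (mean absolute difference 0.22 and 0.23, median gene 0.81), and nearest to FGR were CTBP2 and UNC13D (0.21 and 0.23, median gene 0.86).

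BLK, the B-lymphoid kinase of the family, fell on every day. Its log2 signal ran from 7.90 through 8.08 to 8.44 before irradiation, was 5.97, 5.22, 5.12 and 5.35 at day 3, ran from 4.84 through 5.37 to 5.57 at day 5 and from 4.24 through 5.29 to 6.06 at day 7. None of the 17 later arrays reached the lowest pre-irradiation value. The changes were −2.69 ± 0.19 (0.155-fold; adjusted p 7.91e-06), −2.84 ± 0.16 (0.140-fold; 4.95e-08) and −2.78 ± 0.23 (0.146-fold; 3.63e-06) at days 3, 5 and 7. Between those days BLK differed by −0.14 (95% interval −0.65 to 0.37) from day 3 to day 5 and by 0.06 (−0.51 to 0.63) from day 5 to day 7. The probe was well above background on 3 of 4, 5 of 6 and 5 of 7 of the later arrays, so its lower values lie near the limit of detection. With normexp background the changes shrank to −0.97, −0.71 and −1.20 and did not pass (adjusted p 0.0968, 0.217 and 0.0397).

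All 9 tested B-cell markers fell on each day beside BLK, with median log2 changes of −3.76, −4.09 and −3.67, where 8.87%, 10.3% and 7.98% of all named genes fell. Their summed signal ran from 32534 to 43723 before irradiation, and on days 3, 5 and 7 from 1904 to 4872, 1803 to 3749 and 2751 to 4878, while PAX5 was not well above background on any array. All 7 tested erythroid markers fell on each day too, with medians of −3.51, −5.97 and −4.78. The part of both lists in the BLK result was not tested. The genes nearest to BLK over the 24 arrays were PNOC and BCL7A (mean absolute difference 0.39 and 0.39, median gene 2.07).

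**Figure D2:**
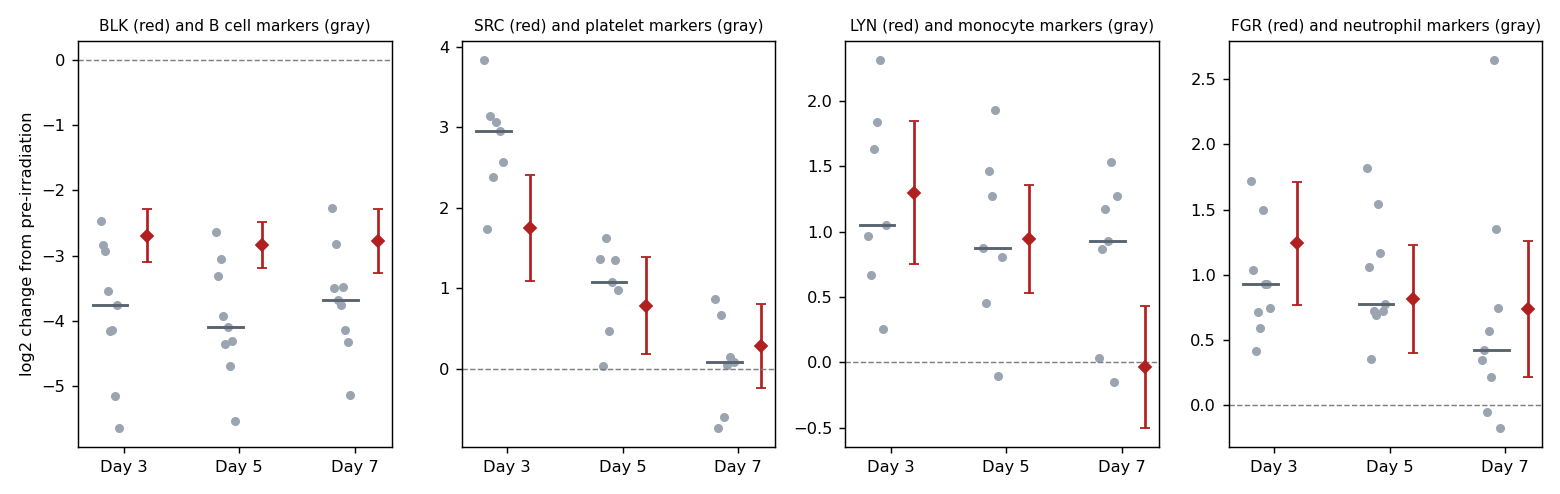
Log2 change from pre-irradiation of BLK, SRC, LYN and FGR (diamonds with 95% intervals) at days 3, 5 and 7, each beside the leading probes of a marker list (dots, bar at the median). SRC and the platelet markers are highest at day 3. LYN is at 1.30, 0.94 and −0.04 and the monocyte median at 1.05, 0.88 and 0.93 at days 3, 5 and 7. With quantile scaling LYN was at 0.56 at day 7, and the marker medians were not computed with that scaling.

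The arrays were scanned in 2 sessions, which divide the groups unevenly. All day 3 and day 5 arrays are in session 2, with 1 array of each other group, and the remaining 12 are in session 1. A rise at days 3 and 5 with a return at day 7 therefore coincides with scan session. Beyond those single arrays day and session cannot be told apart. The pre-irradiation array in session 2, replicate 5, had the highest LYN signal before irradiation (15.97). With session as a block the changes at day 3 were 2.34 for SRC (adjusted p 0.039), 0.75 for LYN (0.332), 1.37 for FGR (0.0825) and −2.85 for BLK (0.00382), and at day 5 they were 0.40 for LYN (0.547) and −2.99 for BLK (0.00024). These values rest on pre-irradiation replicate 5 as the single control in that session. At day 7, within session 1 alone, BLK changed by −2.74 (adjusted p 6.59e-05).

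FYN, which signals below the T-cell receptor and in platelets, was lower at day 3 in all 5 probes, and no probe passed the threshold on any day. The leading probe ran from 13.52 through 13.88 to 13.97 before irradiation, was 13.10, 13.47, 13.58 and 13.25 at day 3, and ran from 12.94 through 13.29 to 14.18 at day 5 and from 12.48 through 13.55 to 14.52 at day 7. At day 3, 3 of 4 arrays lay below all pre-irradiation arrays, and by day 7 the values spread to both sides of them, with an SD of 0.64 against 0.16. Its changes were −0.46 ± 0.15, −0.44 ± 0.18 and −0.29 ± 0.24 (adjusted p 0.0334, 0.0746 and 0.406). The first 3 probes changed by −0.30, −0.22 and −0.41 at day 3 and by 0.04, 0.13 and 0.05 at day 7 (adjusted p 0.0548 to 0.317 and 0.627 to 0.903). Of 9 T-cell markers 3 fell at day 3, 1 at day 5 and none at day 7 by limma, with median log2 changes of −0.83, −0.31 and 0.22, where 8.87%, 10.3% and 7.98% of all named genes fell, so that the count at day 5 is near that share. Their summed signal ran from 83878 to 175220 before irradiation, and on days 3, 5 and 7 from 42521 to 72523, 60906 to 97142 and 65525 to 131118. Their part in the FYN values was not tested.

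The fifth FYN probe, the one with the repeated run, stood apart from the other FYN probes. It changed by −0.41 ± 0.40, −1.02 ± 0.38 and −1.61 ± 0.44 at days 3, 5 and 7 (adjusted p 0.442, 0.0514 and 0.0141), and 6 of the 7 arrays of day 7 were lower than any taken before irradiation. Of the 68 probes that share a run of 20 bases with it, 66 were tested, with median log2 changes of 0.71, 0.37 and −0.64 at the 3 days, and 8, 21 and 64 of the 66 were below 0. Without animal 2 this FYN probe passed the threshold at day 7 (−1.93; adjusted p 0.00238).

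**Figure D3:**
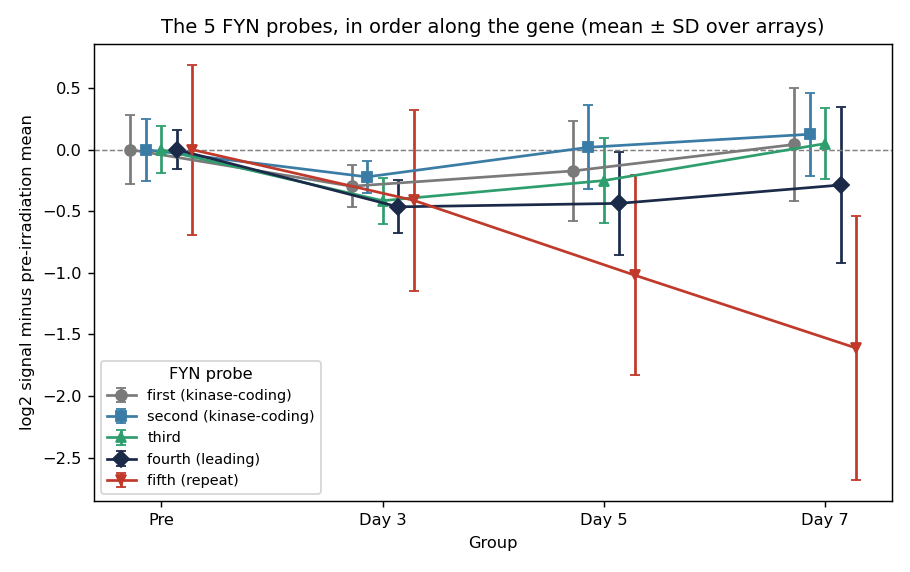
Mean log2 signal of the 5 FYN probes by group, each minus its own pre-irradiation mean, with the SD over arrays. The first 4 probes reach −0.46 at the lowest, while the one with the repeat reaches −1.61 at day 7.

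CSK, the inhibitor of the family, did not pass the threshold on any day. Its log2 signal ran from 13.49 through 13.62 to 13.80 before irradiation and was 14.31, 13.82, 13.91 and 13.92 at day 3, all 4 above the pre-irradiation arrays, yet by a mean of only 0.34 ± 0.14 (1.26-fold; adjusted p 0.0863). At days 5 and 7 it changed by 0.08 and −0.04, with 95% intervals of −0.23 to 0.39 and −0.35 to 0.26, and its arrays lay on both sides of the pre-irradiation range.

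SYK, the kinase recruited to phosphorylated ITAMs, was measured by 2 probes that overlap by 7 bases at chr15:102712099-102712158 and chr15:102712152-102712211. The leading probe ran from 14.97 through 15.60 to 16.44 before irradiation, was 16.82, 16.49, 16.01 and 16.47 at day 3, and ran from 15.08 through 16.49 to 16.72 at day 5 and from 13.91 through 15.72 to 16.00 at day 7. Its changes were 0.68 ± 0.29, 0.32 ± 0.33 and −0.39 ± 0.34 (adjusted p 0.0911, 0.478 and 0.424), none of which passed, and the other probe changed by 0.67, 0.43 and −0.09 (0.0448, 0.173 and 0.825). Both probes were above every pre-irradiation array on 3 of 4 day 3 arrays. The leading probe differed between animals already before irradiation (SD 0.56), when animals 3 and 4 had the lowest values (14.97 and 15.30), as they had at day 5 (15.24 and 15.08) and day 7 (13.91 and 14.60). On the other probe animals 3 and 4 were lowest at day 5 (14.10 and 14.18) and day 7 (13.41 and 13.55), but before irradiation animals 3 and 1 were (13.68 and 13.69).

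YES1 was not well above background on 22 of 24 arrays, where its log2 signal ran from 2.53 to 4.61. The exceptions were 9.36 on the day 3 array of animal 2 and 4.22 on the day 7 array of animal 5. No level or change is given for it.

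**Figure D4:**
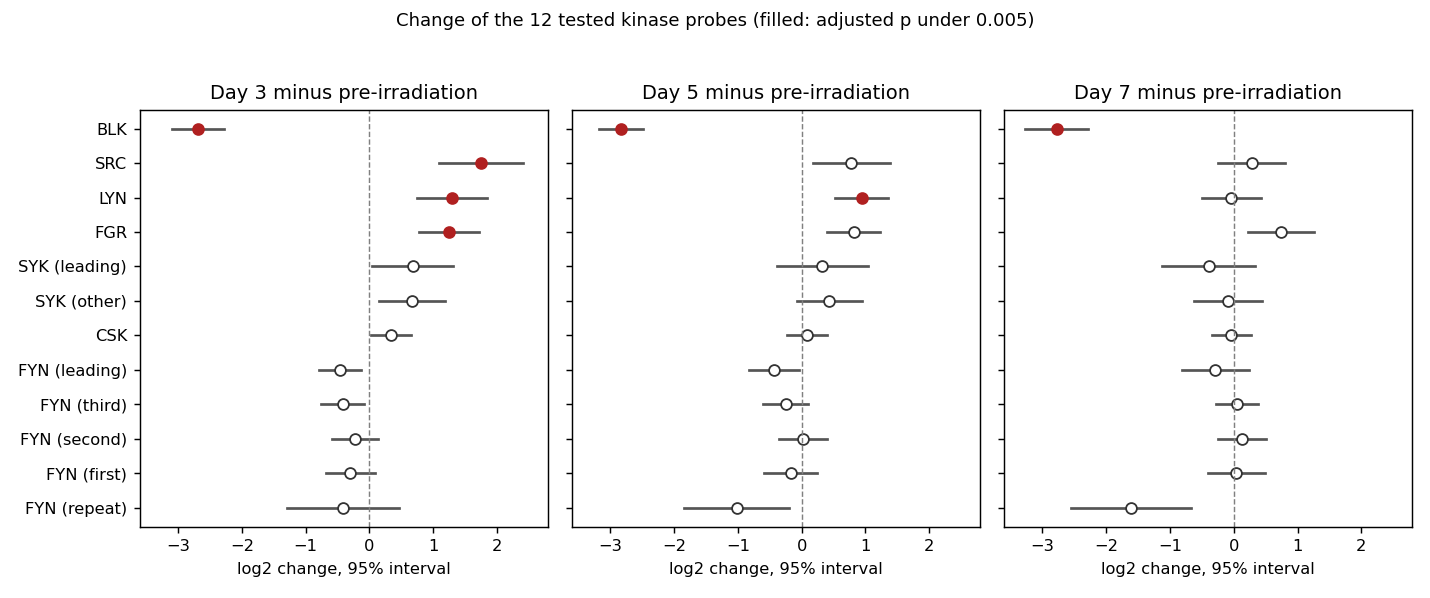
Log2 change from pre-irradiation with its 95% interval for the 12 tested probes at days 3, 5 and 7, filled where the adjusted p is under 0.005. BLK is between −2.84 and −2.69 on all 3 days, whereas SRC and LYN are highest at day 3 and cross 0 in their intervals at day 7.

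Compared directly between days, none of the 12 probes passed the threshold in limma. Between days 3 and 5, days 5 and 7, and days 3 and 7, 0.0184%, 0.00369% and 1.26% of all probes tested changed at an adjusted p under 0.005. An unadjusted p under 0.05 was reached by 1, 1 and 6 of the 12. The share of all probes at that level was not counted, so these numbers cannot be set against the percentages. The largest differences were those of SRC and LYN from day 3 to day 7, by −1.47 ± 0.28 (adjusted p 0.00722) and −1.34 ± 0.24 (0.00612), and all 7 day 7 arrays lay below all 4 day 3 arrays for both. All 4 day 3 arrays were scanned in session 2 and 6 of the 7 day 7 arrays in session 1, so day and session nearly coincide here. In a fit over all 4 groups, which shares one estimate of the spread, both passed (adjusted p 0.00169 and 0.000341), as they did with the filter for signal on every array of 1 group (0.00497 and 0.00415). Under the other alternatives run neither passed, with an adjusted p of 0.00627 to 0.686 for SRC and 0.00639 to 0.692 for LYN. From day 5 to day 7 LYN differed by −0.98 ± 0.18 (adjusted p 0.0236), and was lower in 6 of 6 animals. SRC differed by −0.97 ± 0.32 from day 3 to day 5 (0.312). SYK was lower at day 7 than at day 3 on 7 of 7 arrays, by −1.07 ± 0.39 (0.0823), and FGR by −0.50 ± 0.31 (0.285), with overlapping groups.

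The other genes of the same signaling chain were taken from a list of 71, of which 62 have a probe and 61 were tested. A gene counted as changed when any of its probes was. At day 3 there were 21 changed genes, of which 15 rose and 6 fell, beside 16.6% of all named genes (7.77% rose, 8.87% fell). At day 5 there were 22, with 15 that rose and 7 that fell, beside 19.1% (8.89% and 10.3%). At day 7 there were 9, with 1 that rose and 8 that fell, beside 12.3% (4.37% and 7.98%). The median log2 change of their leading probes was 0.47, 0.21 and 0.16, beside 0.00, −0.01 and −0.01 for all genes. The fit that blocks on animal left 7 changed genes at day 3, when it called 751 of all probes tested, against 3652 in the main fit. Without animal 1, 2, 4 or 7 the count at day 3 was 8, 12, 7 or 12, beside 1398, 1615, 863 or 1792 of all probes. Without animal 1 or 2 the count at day 5 was 13 or 14, beside 2714 or 2740 of all probes, against 4543. PTPRE, FCER1G, TYROBP, SIGLEC9, FCGR2B, PTPN6, PTK2, SKAP1, VAV2 and MATK are named below after their values were seen, and the other genes by the rule given with the methods.

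LCK, the T-cell member of the family, was at −0.42, −0.18 and 0.10 in its leading probe (adjusted p 0.0528, 0.326 and 0.692), and its 5 probes differed in sign at day 3, from −0.53 to 0.42. FRK was not tested, and MATK, a kinase related to CSK, was at 0.00, 0.19 and 0.16 and did not pass on any day.

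The counts by group stand beside 7.77%, 8.89% and 4.37% of all named genes that rose and 8.87%, 10.3% and 7.98% that fell at days 3, 5 and 7. Of 8 CSK anchors and phosphatases acting on the family, 2 rose at day 3, 3 at day 5 and none passed at day 7. PTPRJ, a receptor phosphatase that can activate SRC-family kinases, rose by 1.57 at day 3 (adjusted p 0.00161) and 1.06 at day 5 (0.00225). PTPRE rose by 1.11 and 1.31 on the same days. The ubiquitin ligase CBL passed at day 5 (adjusted p 0.00156), but it was well above background on 0 of 7 pre-irradiation and 3 of 6 day 5 arrays, so no fold is given. Of 8 inhibitory phosphatases, ligases and adaptors, 3 rose at day 3, 1 at day 5, which is near the share of all genes, and none passed at day 7. They include the adaptor DOK3 (1.35 at day 3; adjusted p 0.00272), the lipid phosphatase INPP5D (0.80 at day 3 and 1.21 at day 5; 0.00478 and 0.0004) and the phosphatase PTPN6 (0.89 at day 3, not its leading probe).

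Of 6 ITAM adaptors, CD79B and CD79A, which carry the motifs of that receptor, changed by −4.35 and −3.92 on the log2 scale at day 5 (adjusted p 6.9e-09 and 2.41e-08) and fell on the other days too, FCER1G rose by 1.67 at day 3, and TYROBP fell by 0.80 at day 7. Of 6 SYK-type and TEC-family kinases, BTK, which acts below SYK in B cells, changed by −3.31 at day 5 (2.55e-06) and −2.92 at day 7 but did not pass at day 3 (−1.63, adjusted p 0.0308), and the other 5 did not pass on any day. Of 6 receptors with inhibitory motifs (ITIMs), CD22 and CD72 fell on each day, CD22 with −3.04 at day 5 (2.25e-06), and CD72 at day 7 to a level not well above background on any of 7 arrays, at least 13.1-fold lower (6.64e-07). SIGLEC9 rose by 1.98 at day 3 and 1.47 at day 5, and FCGR2B rose by 1.30 at day 5 in a probe that is not its leading one. CD79A, CD79B and CD22 are also among the 9 B-cell markers above.

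Of 19 adaptors and effectors below SYK, 5 rose and 2 fell at day 3, 7 rose and 2 fell at day 5, and 1 rose and 1 fell at day 7. The falls on days 3 and 5 and both counts at day 7 are near the shares of all genes. Besides BLNK, SKAP1 fell at day 3 (−0.95) and VAV2 at day 5 (−1.10). BLNK, the adaptor that SYK phosphorylates in B cells, fell by 3.26 at day 3 (adjusted p 2.62e-06) and on both later days, and CARD9, an adaptor of myeloid ITAM receptors, rose by 1.66 at day 3 (0.000127) and 1.17 at day 5 (0.000743) in a probe that is not its leading one, where the leading one was at 0.89 at day 3 (0.008) and did not pass. Of 5 adhesion kinases and scaffold substrates, CTTN, an actin-binding substrate of SRC, rose by 2.82 at day 3 (7.06-fold; 0.000459), when it was well above background on 4 of 4 arrays against 4 of 7 before irradiation, and was at 1.08 at day 5 and −0.39 at day 7. PTK2B rose by 1.71 at day 3 and 1.47 at day 5 in a probe that is not its leading one (0.00117 and 0.000301), and in the leading one was at 1.13 at day 3 (0.00644) and 0.91 at day 5 (0.00252, passed). PTK2 fell by 1.11 at day 7.

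**Figure D5:**
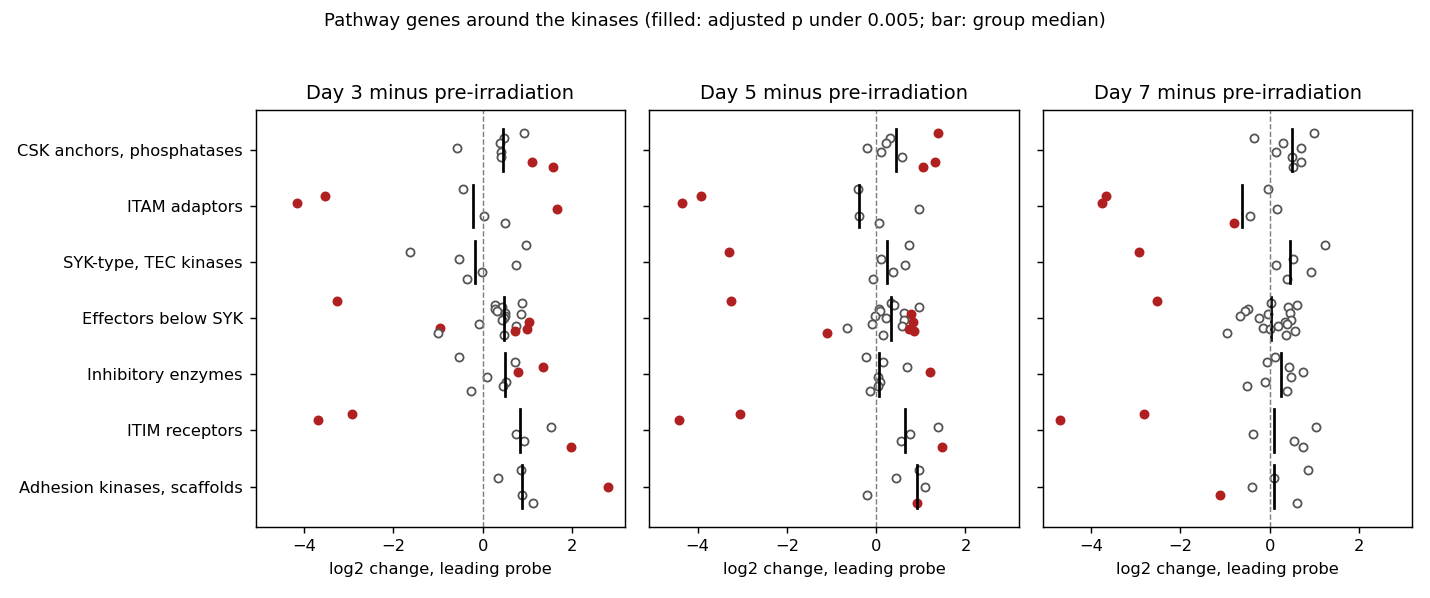
Log2 change from pre-irradiation at days 3, 5 and 7 of the leading probe of 58 tested pathway genes, in 7 groups, with the group median as a bar and filled points where the adjusted p is under 0.005. All points below −2 belong to the ITAM, ITIM, TEC-family and effector groups.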

How the data were processed

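Each of 24 whole-blood RNA samples was run on a one-colour Agilent rhesus array, 4 arrays to a slide. The deposited scanner output gives the processed signal, an intensity with background subtracted by the authors' Feature Extraction software (version 10.7 per the labels, 12.0.2.2 per the file headers). The table of processed values that the authors deposited is on the log2 scale, equals that signal up to an array constant, and served as an alternative. The study's methods name a human array and gamma rays, the labels a rhesus array and X-rays, and the probe names and coordinates used here are those of the rhesus design in the file headers.

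Here log2 processed signals were shifted to the median array by −0.87 to 2.03, outlier spots left out and spots of 1 probe averaged. The 27133 probes that 4 or more of the 24 arrays measured well above background were tested with limma 3.58.1 (R 4.3.3), each pair of groups in its own fit, two-sided, with Benjamini-Hochberg adjustment over all of them. A change has an adjusted p under 0.005. Intervals are 95%, and their precision is set by how few arrays there are. The fits were tested on simulated data. Gene names are those of the scanner output (23054 probes) or matched by accession (898). Figures used matplotlib 3.10.9.

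All members are described. From the pathway list LCK is named, with up to 2 genes per group by largest change, and for each changed member the 2 genes nearest by mean absolute difference of centred log2 signal. The members and lists were chosen with earlier results of these data known.

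Samples were grouped by their labels, with 7, 4, 6 and 7 samples. Replicate numbers were taken as animals, because the labelled sexes match (the labels speak of 8 animals, the numbers run to 7) and, after subtraction of group means, same-numbered arrays of pre-irradiation and each later day correlated with r from 0.132 to 0.454, all above 0.1. Arrays of different numbers had a median r of −0.05, −0.08 and −0.05 at days 3, 5 and 7. The same number was the best match for 4 of 4, 5 of 6 and 6 of 7 arrays. Alternatives were 75th percentile and quantile scaling, normexp background, the authors' values, other filters, blocks for animal, slide, session and sex (the last chosen after seeing the data), one fit over all groups and leaving out each animal. The 2 scan sessions and 6 slides are as the file headers give them. The values of 1 gene of the pathway list and the letters of the repeated run in a FYN probe are not reported here. No genome or protein sequences were used.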

Additional observations from a re-analysis of the deposited data

Results flagged for a closer look

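Among 52 tests for a stray array, 1 per member probe and group, 2 passed Dixon's 95% critical value, where chance gives about 1 in 20. On the YES1 probe the day 3 array of animal 2 gave 9.36 on the log2 scale, where the other 3 arrays lay between 3.95 and 4.61. It is 1 of the 2 arrays on which this probe was well above background, and YES1 was not tested. On the leading FYN probe the day 5 array of animal 4 gave 14.18, where the other 5 lay between 12.94 and 13.33. The same array was also the highest of day 5 on the 3 other FYN probes without the repeated run.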

How the results depend on the processing

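The fall of BLK kept its direction under every alternative run and its call except with normexp background on every day (−0.97, −0.71 and −1.20) and with slide as a block at day 3. The rises of SRC, LYN and FGR at day 3 kept their direction throughout, and their calls under both other scalings, the authors' values, both filters, the fit over all groups and sex as a block. Of 467 single member changes recomputed, 406 kept direction and call, 33 lost a call, 11 gained one and 17 turned sign. The cause of these moves was not tested. The slide block at day 3 and the session block at days 3 and 5 lean on pre-irradiation replicate 5, and an array count of 4 limits day 3.

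Normexp background left 0 member probes called at days 3, 5 and 7 (against 4, 2 and 1) and 4, 5 and 5 pathway genes (against 21, 22 and 9), and moved the median of all probes to 0.15, 0.14 and 0.05. Calls among all probes tested went to 135, 210 and 326, from 3652, 4543 and 2951. The replicate block, which pairs arrays by animal, gave 1 member probe and 7 pathway genes at day 3, and among member calls at days 5 and 7 changed that of FGR at day 5 only. At day 3 it called 751 of all probes tested, against 3652 in the main fit. The slide block at day 3 and the session block at days 3 and 5 have 1 pre-irradiation array in a block shared with the later day. Their counts of calls are therefore not given. Quantile scaling gave 2 member probes at day 7, FGR (1.35) and BLK. From day 3 to day 7, requiring signal well above background on every array of 1 group gave 2 member probes, and the fit over all groups 2, SRC and LYN each time. With 1 animal left out, the 3 days had 1 to 4, 1 to 3 and 1 to 2 member probes and 7 to 20, 13 to 23 and 7 to 8 pathway genes. Among all probes tested 863 to 3492 were then called at day 3 and 2714 to 4296 at day 5, against 3652 and 4543 in the main fits.

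Signs turned for members that had not passed. SYK went to −0.19 at day 3 (slide block), −0.29 (normexp) and −0.34 (session block) at day 5, and 0.23 at day 7 (quantile). CSK went to −0.45 at day 5 (normexp), and at day 7 to 0.28 (quantile), 0.09 (normexp), 0.02 and 0.01 (without replicates 2 and 6, with a range from −0.12 to 0.02 over all replicates left out). LYN at day 7 went to 0.56 (quantile), 0.10 (normexp), 0.02 (session 1 only), and 0.03, 0.03, 0.02 and 0.00 (without replicates 3, 4, 5 and 7, with a range from −0.17 to 0.03), and FYN to 0.04 (quantile).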

Other observations

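Before irradiation the 3 females lay above all 4 males on 3 of the 12 member probes tested, those of LYN and both of SYK, a comparison looked at after the values were seen, while the sexes did not overlap on 11.4% of all probes tested. LYN ran from 14.77 to 15.43 in males and from 15.77 to 15.97 in females. SYK ran from 14.97 to 15.60 and from 16.16 to 16.44 in its leading probe, and from 13.68 to 14.21 and from 14.62 to 14.78 in the other. At day 5 LYN ran from 16.25 to 16.42 in the 4 males and was 16.32 and 16.53 in the 2 females.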
